A study of Homo sapiens with 12 samples.

Results

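The 10 genes described here encode the inducible negative feedback of the ERK pathway and its transcriptional readout. They are the dual-specificity phosphatases DUSP1, DUSP4, DUSP5 and DUSP6, the Sprouty and Spred inhibitors SPRY1, SPRY2, SPRY4 and SPRED1, and the ETS factors ETV4 and ETV5. They were taken by name, with earlier results of these data known, and are 10 of the 40649 genes in the count tables. All 10 passed the filter on low counts, DUSP4 only through its levels in the H2O2-treated groups.

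Bulk RNA of HK-2 cells, an immortalised human line from the epithelium of the proximal tubule, was sequenced in 12 libraries, 4 in each of 3 groups. YH libraries carry the genotype label Yap1 knockdown and were treated with H2O2, H2O2 libraries carry the control hairpin ShNC and the same treatment, and ShNC libraries carry the control hairpin with the treatment label Control. The oxidant dose was 150 µM over 48 h, and cells of all groups grew in MEM with 10% fetal bovine serum. A knockdown group without H2O2 was not analysed here, and what the knockdown does on its own was therefore not tested. The number of clones or hairpins behind the knockdown is not given in the sources used here. The labels name the cell line, whereas the extraction text speaks of kidney tissue, and nothing in them says whether replicates were grown as separate cultures. The p-values therefore measure the spread between these libraries alone, and that spread may be technical.

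Growth factors acting on receptor tyrosine kinases switch on RAS, RAF, MEK and ERK in turn, and active ERK drives transcription of its own inhibitors. DUSP phosphatases remove the activating phosphates from ERK or related kinases, and Sprouty and Spred proteins act upstream, between receptor and RAF. ETV4 and ETV5 are transcription factors whose genes are repressed by Capicua (CIC) until ERK signalling relieves it, and in the developing kidney they act downstream of the RET receptor in the ureteric bud. Because the products act against the pathway that induces them, their transcripts are widely read as a record of ERK output, although transcript levels do not measure ERK phosphorylation, which was not measured here.

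Each library held between 30789997 and 46582873 counts. Levels are given as CPM, counts scaled to library size with TMM factors, and the floor of 3 counts used here equals 0.0638 to 0.0951 CPM. Mitochondrial genes took 11.3% of counts in YH replicate 3 and 13.9% in ShNC replicate 4, against 4.54% to 5.64% in the other 10 libraries, and both libraries stood apart from their replicates. YAP1 had 131, 135, 111 and 136 CPM in YH replicates 1 to 4, against 155, 151, 156 and 164 CPM in H2O2 and 136, 130.3, 141 and 124 CPM in ShNC. YAP1 was therefore lower in YH than in H2O2 without overlap (log2 fold change -0.29 ± 0.07 SE, edgeR adjusted p = 0.00346), but YH and ShNC overlapped (-0.05 ± 0.07, adjusted p = 0.636). Of the proximal tubule markers, PAX8 averaged 319, 244 and 427 CPM in YH, H2O2 and ShNC, while SLC22A8 had 0 counts in every library, LRP2, ANPEP and AQP1 averaged between 0.024 and 0.259 CPM, and GGT1 averaged 5.65, 4.42 and 3.67 CPM in YH, H2O2 and ShNC. Keratins and EPCAM were present in every group, while CDH1, also on the epithelial list, averaged 3.1, 1.2 and 5.8 CPM in YH, H2O2 and ShNC. Levels are those of bulk RNA, in which fewer cells of a type and less RNA per cell cannot be told apart.

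Most of the feedback genes were higher in H2O2 than in ShNC, with DUSP1 and SPRY1 lower, and in YH 6 were higher than in H2O2, with ETV4 and SPRED1 lower. DUSP5, DUSP6, SPRY4 and ETV5 were the 4 called higher in both comparisons. Between H2O2 and ShNC, 8 of the 10 were higher and 2 were lower at a Benjamini-Hochberg adjusted p under 0.05 by edgeR, while 46.6% of the 19268 tested genes were called, 23.9% higher and 22.6% lower. Their median log2 fold change was 0.73, against 0.004 over all tested genes. Without DUSP4, 7 of 9 were higher and 2 lower with a median of 0.53. Between YH and H2O2, 6 of 10 were higher and 2 lower, where 43.0% of all genes were called, 22.0% higher and 21.0% lower. The median of the 10 was 0.27 against -0.004 over all genes. That split was 3 higher and 3 lower once the shift shared with neighbouring genes was taken out, as described after ETV5. Between YH and ShNC, 8 of 10 were higher and 0 lower, where 32.5% of all genes were called, 17.4% higher and 15.1% lower. The median of the 10 there was 1.24, against 0.002 over all tested genes, and all 10 fitted changes were above 0, so 0 were lower at an unadjusted p under 0.05 as well. Without DUSP4, 7 of 9 were higher there, with a median of 1.21. By the libraries themselves, 7 of the 10 were higher and 2 lower without overlap in H2O2 against ShNC, where 48.0% of all genes did not overlap, 25.2% higher and 22.9% lower. In YH against H2O2, 5 were higher and 1 lower without overlap, beside 45.2% of all genes, 22.5% higher and 22.7% lower. In YH against ShNC, 8 were higher without overlap, beside 29.7% of all genes, 15.8% higher and 13.9% lower. The 7 and the 8 higher than ShNC include DUSP4, which passed the filter on low counts only through the treated groups. The 3 comparisons share libraries and are not independent of each other. The members were chosen with earlier results of these data known, so their counts and medians beside all genes are descriptions.

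**Figure D1:**
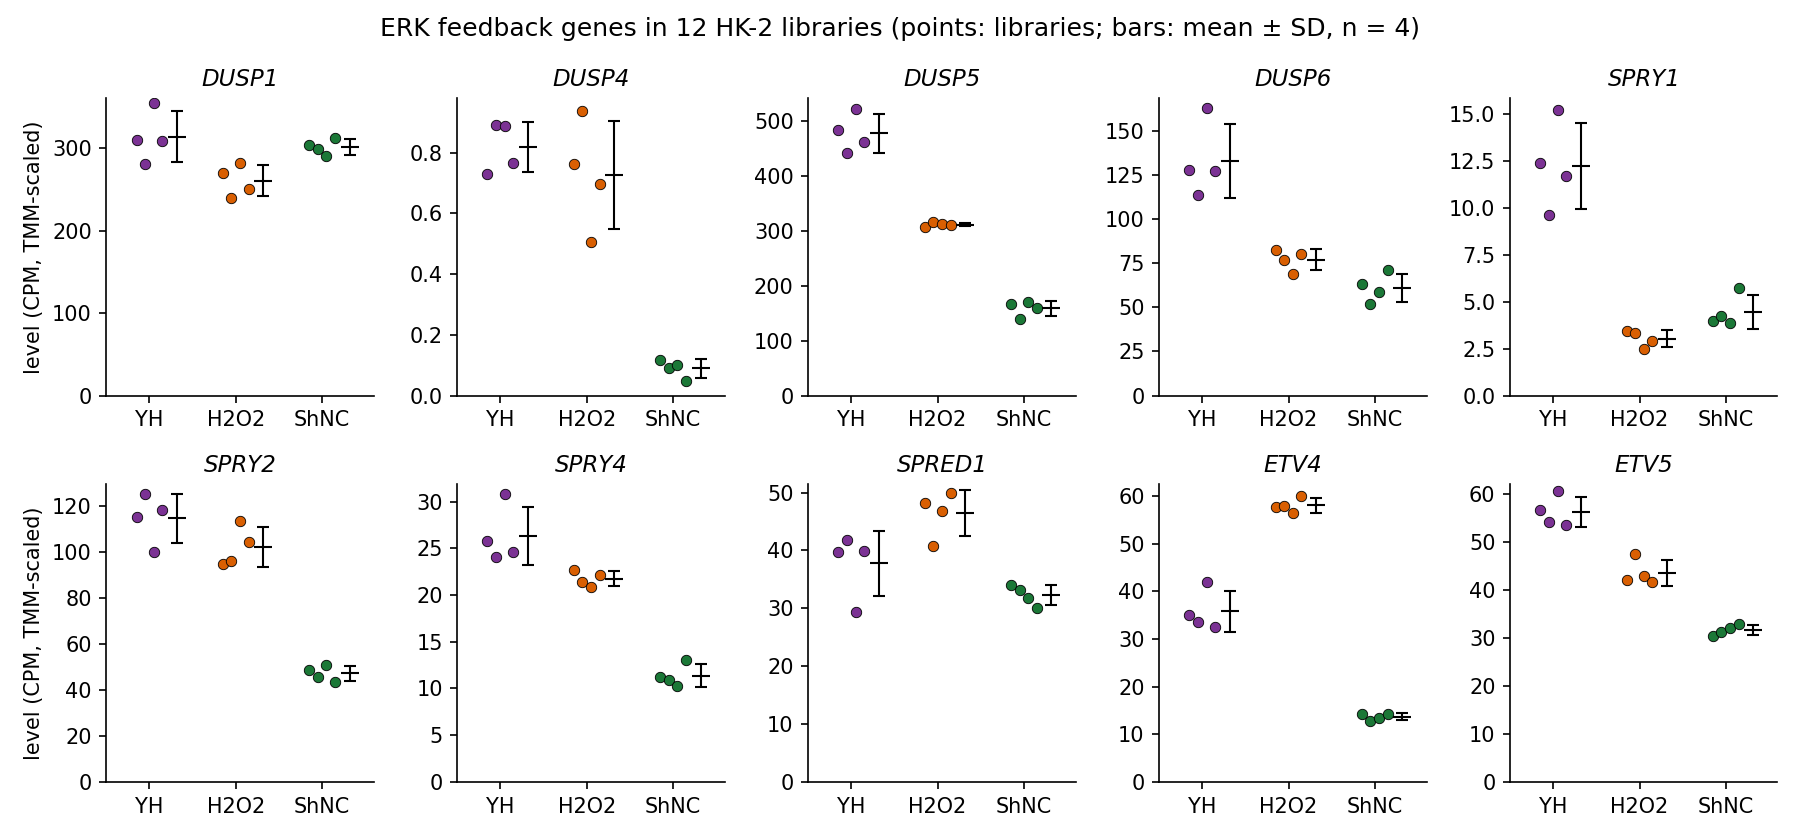
Level of each of the 10 genes in CPM (vertical axis, linear) in the 4 YH, 4 H2O2 and 4 ShNC libraries, with points for libraries and bars for the mean and SD. DUSP5 lies at 441 to 522 CPM in YH, 307 to 315 CPM in H2O2 and 139.7 to 170.2 CPM in ShNC, ETV4 peaks in H2O2 at 56.4 to 60.1 CPM, and SPRY1 is lowest in H2O2 at 2.47 to 3.43 CPM.

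DUSP5, a nuclear phosphatase specific for ERK, was the phosphatase whose 3 groups were all apart. It lies at chr10:110497838-110511544, plus strand (GRCh38, GENCODE v29, as for all genes here). It had 483, 441, 522 and 460.5 CPM in YH replicates 1 to 4, against 307, 315, 312 and 309 CPM in H2O2 and 167, 139.7, 170.2 and 159 CPM in ShNC. Every YH library lay above every H2O2 library, and every H2O2 library above every ShNC library. The log2 fold change was 0.97 ± 0.07 in H2O2 over ShNC (adjusted p = 1.66e-08), 0.62 ± 0.07 in YH over H2O2 (adjusted p = 3.42e-06) and 1.58 ± 0.07 in YH over ShNC, a fold of 3.00. The 4 H2O2 libraries differed little among themselves, with an SD of 3.44 CPM around a mean of 311 CPM.

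DUSP6, the cytoplasmic phosphatase of ERK and the member most often used as a pathway reporter, was highest in YH. It lies at chr12:89347232-89353271, minus strand, and had 128, 114, 163 and 127 CPM in YH, against 82.4, 76.6, 69.0 and 80.2 CPM in H2O2 and 62.9, 51.7, 58.4 and 71.0 CPM in ShNC. YH stood above both other groups without overlap, while 1 H2O2 library, replicate 3, fell below the highest ShNC library. The rise in YH over H2O2 was 0.79 ± 0.11 on the log2 scale (adjusted p = 3.38e-05) and that in H2O2 over ShNC 0.34 ± 0.11 (adjusted p = 0.0204). Over 23 alternatives the adjusted p of the rise in H2O2 ran between 0.000849 and 0.0773, and it missed the threshold when ShNC replicate 2 (adjusted p = 0.0773), ShNC replicate 3 (0.0524), H2O2 replicate 1 (0.0591) or H2O2 replicate 4 (0.0513) was left out. Of the exon bases of DUSP6, 40.5% lie in AC024909.2, a gene on the opposite strand counted at 12 to 37 reads per library, and strand use in the counting is not given in the sources used here, so the level of DUSP6 is uncertain.

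DUSP1, a nuclear phosphatase that also acts on p38 and JNK and is an immediate early gene of many stresses, differed little between groups. It lies at chr5:172768090-172771195, minus strand, and had 310.1, 281, 355 and 309 CPM in YH, against 269, 239.9, 282 and 249.9 CPM in H2O2 and 304, 299, 289.7 and 312 CPM in ShNC. The H2O2 libraries all lay below the ShNC libraries, and YH overlapped both other groups. The log2 fold change was -0.21 ± 0.07 in H2O2 over ShNC (adjusted p = 0.0262) and 0.27 ± 0.07 in YH over H2O2 (adjusted p = 0.00735), while YH over ShNC was 0.06 with a 95% interval of -0.10 to 0.21 (adjusted p = 0.591). With the shift of neighbouring genes removed, these became -0.10 in H2O2 over ShNC (adjusted p = 0.311) and 0.06 in YH over H2O2 (0.553). Over 23 alternatives the adjusted p of the fall in H2O2 ran between 0.0019 and 0.311, and it also missed the threshold with library sizes in place of TMM factors (-0.13, adjusted p = 0.12), and when ShNC replicate 1 (0.0552), H2O2 replicate 2 (0.0969) or H2O2 replicate 4 (0.0805) was left out.

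DUSP4, a nuclear phosphatase of ERK and JNK, was close to the floor in ShNC and remained scarce under H2O2. It had 28, 32, 31 and 36 counts in YH (0.728 to 0.892 CPM), against 30, 38, 16 and 30 counts in H2O2 (0.507 to 0.935 CPM) and 4, 4, 4 and 2 counts in ShNC (0.0475 to 0.119 CPM). Both treated groups lay above ShNC in every library and overlapped each other. Summed over libraries, H2O2 held 114 counts against 14 in ShNC, a depth-adjusted ratio of 8.39 that is given as a description. Since DUSP4 passed the filter on low counts only through the treated groups, its edgeR calls against ShNC carry no weight. YH over H2O2 was 0.16 ± 0.26, with a 95% interval of -0.39 to 0.71 (adjusted p = 0.648). The summed counts leave out the spread between libraries, and the reads carry no molecular identifiers.

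The promoter window of DUSP1, the 250 bases before its RefSeq start, is shown because it held the single match of a cyclic AMP response element among the windows searched. RefSeq on GRCh38.p14 listed 9 starts for 6 of the 10 genes, DUSP1, DUSP6, SPRY1, SPRY2, SPRY4 and SPRED1. Each start was searched from 250 bases before to 50 after, on both strands, for TGANTCA (AP-1), TGACGTCA (the cyclic AMP response element), GGAATG (TEAD, the partner of YAP1, reading CATTCC on the other strand), TGAATGAA or TGAATGGA (CIC) and the CArG box of SRF. The cyclic AMP response element is the capitalised run in the DUSP1 window at chr5:172771196-172771445, minus strand.
DUSP1 upstream: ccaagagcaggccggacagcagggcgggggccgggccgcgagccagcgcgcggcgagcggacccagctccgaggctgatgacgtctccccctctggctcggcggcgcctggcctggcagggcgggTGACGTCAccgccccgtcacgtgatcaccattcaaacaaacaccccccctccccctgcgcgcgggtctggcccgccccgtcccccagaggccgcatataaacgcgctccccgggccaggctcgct
The SPRY1 window at chr4:123396545-123396794, plus strand, is set beside it because SPRY1 gave the widest difference between YH and H2O2, and these motifs have no match in it.
SPRY1 upstream: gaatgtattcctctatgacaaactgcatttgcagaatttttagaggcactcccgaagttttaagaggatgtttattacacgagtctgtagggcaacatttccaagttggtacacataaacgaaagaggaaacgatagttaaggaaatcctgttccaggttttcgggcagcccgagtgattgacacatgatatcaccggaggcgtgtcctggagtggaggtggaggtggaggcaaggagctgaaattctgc
In SPRY4 the single match was the TEAD motif just after the start, capitalised in the 30 bases at chr5:142324229-142324258, minus strand.
SPRY4 start: ctcaggactgggCATTCCtactccctctcc
The remaining windows of these 6 genes held none of the motifs. Of all 35116 RefSeq promoters of this length, 1.85% held the cyclic AMP response element, 14.0% the TEAD motif, 7.71% the AP-1 motif, 2.63% the CIC motif and 1.29% the CArG box. The 2 matches lie in different genes and overlap no other match. A match describes these letters and does not show binding.

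SPRY1, a Sprouty inhibitor that dampens RET signalling during kidney development in mice, was the member that differed most between YH and H2O2. It lies at chr4:123396795-123403760, plus strand, and had 12.4, 9.62, 15.2 and 11.7 CPM in YH, against 3.43, 3.35, 2.47 and 2.91 CPM in H2O2 and 3.98, 4.24, 3.85 and 5.75 CPM in ShNC. YH lay far above both other groups and H2O2 lay just below ShNC, each without overlap. YH over H2O2 was 2.00 ± 0.17 on the log2 scale, a fold of 4.01 (adjusted p = 1.38e-07), and YH over ShNC 1.45 ± 0.16 (adjusted p = 5.91e-06). The fall in H2O2 against ShNC was -0.55 ± 0.17 (adjusted p = 0.0143), with adjusted p of 0.00339 to 0.0503 over 23 alternatives and the highest of these without H2O2 replicate 3. The summed level of the 13 proximal tubule markers matched, of 14 used, was also lowest in H2O2, with PAX8 making up most of it. It was 303 to 392 CPM in YH, 244 to 269 CPM in H2O2 and 422 to 460.5 CPM in ShNC. PAX8 and SLC34A1 were among the markers lowest in H2O2. PAX2, SLC5A2 and AQP1 ran the other way, highest in H2O2 at means of 4.61, 1.08 and 0.259 CPM. The part of these markers in the SPRY1 result was not tested.

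SPRY2, a Sprouty inhibitor that binds the adaptor GRB2, rose under H2O2, and YH overlapped with H2O2. It lies at chr13:80335976-80340951, minus strand, and had 116, 125, 99.99 and 118 CPM in YH, against 94.8, 96.1, 114 and 104.5 CPM in H2O2 and 48.8, 45.9, 50.8 and 43.7 CPM in ShNC. Every library of the treated groups lay above the highest ShNC library, and the treated groups overlapped each other. H2O2 over ShNC was 1.11 ± 0.08 on the log2 scale (adjusted p = 2.21e-08) and YH over ShNC 1.28 ± 0.08 (adjusted p = 1.98e-08). YH over H2O2 was 0.17 ± 0.08 with a 95% interval of -0.005 to 0.34 (adjusted p = 0.11), but 0.23 (adjusted p = 0.017) without YH replicate 3 and 0.23 (adjusted p = 0.00139) without both libraries of high mitochondrial share, within a range of 0.00139 to 0.414 over 23 alternatives.

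SPRY4, a Sprouty inhibitor that acts on RAS and RAF activation, also rose under H2O2. It lies at chr5:142310427-142326455, minus strand, and had 25.8, 24.1, 30.8 and 24.6 CPM in YH, against 22.6, 21.4, 20.9 and 22.1 CPM in H2O2 and 11.3, 10.9, 10.3 and 13.1 CPM in ShNC. The 3 groups did not overlap, although the gap between YH and H2O2 was small beside that to ShNC. H2O2 over ShNC was 0.93 ± 0.10 on the log2 scale (adjusted p = 9.46e-07), and YH over H2O2 0.27 ± 0.09 (adjusted p = 0.0281). Over 23 alternatives the adjusted p of that second difference ran between 0.00869 and 0.411, and it missed the threshold with the shift of neighbouring genes removed (0.11, adjusted p = 0.411) and without H2O2 replicate 2 (adjusted p = 0.0673), H2O2 replicate 3 (0.0727), H2O2 replicate 4 (0.054) or YH replicate 3 (0.0724).

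SPRED1, which recruits the RAS inhibitor neurofibromin to the membrane, was the inhibitor that fell in YH against H2O2. It lies at chr15:38252326-38357249, plus strand, and had 39.8, 41.9, 29.4 and 39.9 CPM in YH, against 48.2, 40.8, 46.8 and 49.9 CPM in H2O2 and 34.0, 33.2, 31.7 and 30.1 CPM in ShNC. H2O2 lay above ShNC in every library, and YH overlapped both. H2O2 over ShNC was 0.53 ± 0.10 on the log2 scale (adjusted p = 0.00047) and YH over H2O2 -0.30 ± 0.10 (adjusted p = 0.025). Without YH replicate 3, a library of high mitochondrial share, the value was -0.20 (adjusted p = 0.0414). Over 23 alternatives its adjusted p ran between 0.00239 and 0.0779, and it missed the threshold without H2O2 replicate 1 (adjusted p = 0.0659), 3 (0.0521) or 4 (0.0779). YH over ShNC was 0.23 ± 0.10 (adjusted p = 0.0986) and passed without YH replicate 3 (0.33, adjusted p = 0.00261) and without both libraries of high mitochondrial share (0.29, 0.000137).

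ETV4, an ETS factor of the PEA3 group, rose in H2O2 and was lower again in YH. It lies at chr17:43527844-43579620, minus strand, and had 35.1, 33.5, 42.1 and 32.4 CPM in YH, against 57.7, 57.9, 56.4 and 60.1 CPM in H2O2 and 14.2, 12.8, 13.4 and 14.3 CPM in ShNC. The 3 groups were apart by wide margins, with YH between H2O2 and ShNC. H2O2 over ShNC was 2.08 ± 0.08 on the log2 scale, a fold of 4.24 (adjusted p = 2.15e-11). YH over H2O2 was -0.70 ± 0.08 (adjusted p = 4.24e-06), and YH over ShNC 1.39 ± 0.08 (adjusted p = 1.13e-08). The summed level of 7 fibroblast markers ran in the same order, with 144 to 172 CPM in YH, 236 to 255 CPM in H2O2 and 111 to 113 CPM in ShNC. LUM made up most of that sum, at means of 149, 217 and 98.9 CPM in YH, H2O2 and ShNC. COL1A1 and DCN were also highest in H2O2, and COL3A1 averaged 0 to 0.0835 CPM. PDGFRB and THY1 ran the other way, lowest in H2O2 at 1.27 and 0.339 CPM and highest in ShNC at 2.10 and 0.709 CPM. COL1A2 had 0 counts in every library, and the part of these markers in the ETV4 result was not tested.

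ETV5, the close relative of ETV4, was higher in H2O2 than in ShNC and, as measured, higher still in YH. It lies at chr3:186046308-186110318, minus strand, and had 56.7, 54.2, 60.5 and 53.4 CPM in YH, against 42.0, 47.4, 43.0 and 41.6 CPM in H2O2 and 30.4, 31.2, 32.1 and 32.8 CPM in ShNC. Again the 3 groups did not overlap, here with YH highest. H2O2 over ShNC was 0.46 ± 0.07 on the log2 scale (adjusted p = 3.45e-05) and YH over H2O2 0.37 ± 0.07 (adjusted p = 0.000308). The count of ETV4 over that of ETV5, a pair chosen after its values were seen, was 0.635 ± 0.041 in YH, 1.34 ± 0.09 in H2O2 and 0.433 ± 0.025 in ShNC (SD, n = 4 each), with no overlap between groups. That ratio is of counts as measured, and the shift of the genes around ETV5, given below, was not taken out of it.

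**Figure D2:**
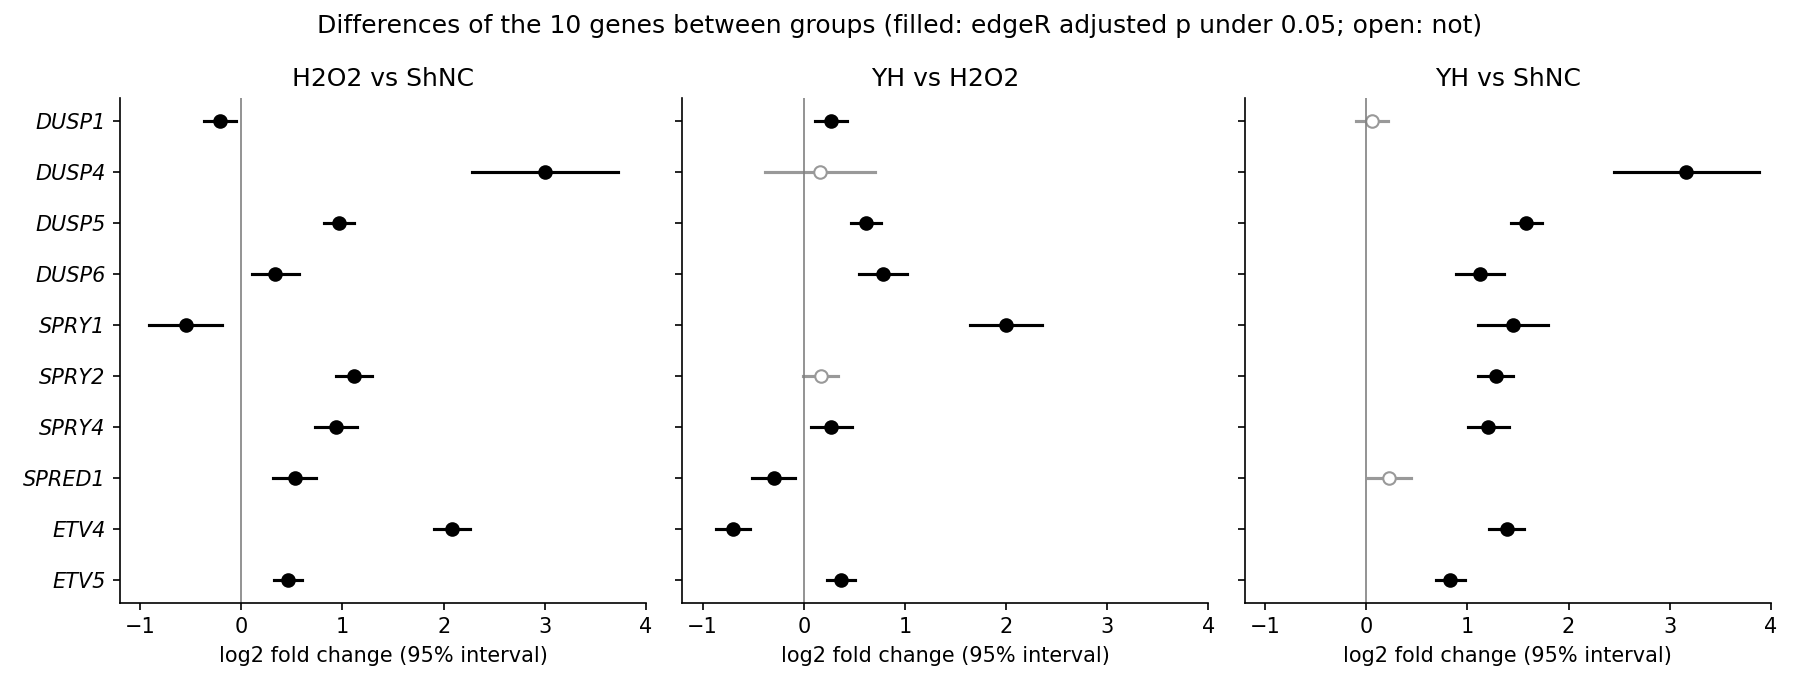
Log2 fold change of each gene with its 95% interval (horizontal axis) in H2O2 over ShNC, YH over H2O2 and YH over ShNC, filled where the edgeR adjusted p was under 0.05. In YH over H2O2, SPRY1 stands at 2.00 and ETV4 at -0.70, while DUSP4 and SPRY2 are open.

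The genes around ETV5 on chromosome 3 moved together, and the direction of ETV5 in YH depended on whether that shift was taken out. In the window of 51 tested genes centred on ETV5, 45 of the 50 neighbours were lower in H2O2 than in ShNC and 45 were higher in YH than in H2O2, with window medians of -0.57 and 0.59 on the log2 scale. Between YH and ShNC the window median was -0.10, with 28 neighbours lower and 22 higher. With the median of its own window subtracted, ETV5 was 1.03 in H2O2 over ShNC (adjusted p = 5.94e-09) and -0.22 in YH over H2O2 (adjusted p = 0.0139), the reverse of its direction as measured. ETV4, whose window medians were -0.005 and -0.02, stayed at 2.09 and -0.68. No copy number was measured, and the source of the shared shift was not tested.

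The same subtraction changed calls for 3 other members and for YAP1. DUSP1 lost both of its calls and SPRY4 its call in YH over H2O2, with the values given above. SPRED1 in YH over ShNC passed at 0.34 (adjusted p = 0.0161), and YAP1 in H2O2 over ShNC became 0.17 (adjusted p = 0.0592). The counts were then 8 higher and 1 lower in H2O2 over ShNC, 3 higher and 3 lower in YH over H2O2, and 9 higher and 0 lower in YH over ShNC. The 8 and the 9 include DUSP4, whose calls against ShNC carry no weight. Over 23 alternatives, with this subtraction among them, 8026 to 11603 of all tested genes were called in H2O2 over ShNC. The ranges were 7196 to 11194 in YH over H2O2 and 4950 to 9146 in YH over ShNC. These ranges hold for the lists below as well. Shares of all genes called in each direction after this subtraction are not given here. DUSP5, DUSP6 and SPRY1 were the members still higher in YH than in H2O2, at 0.43, 0.66 and 1.92.

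**Figure D3:**
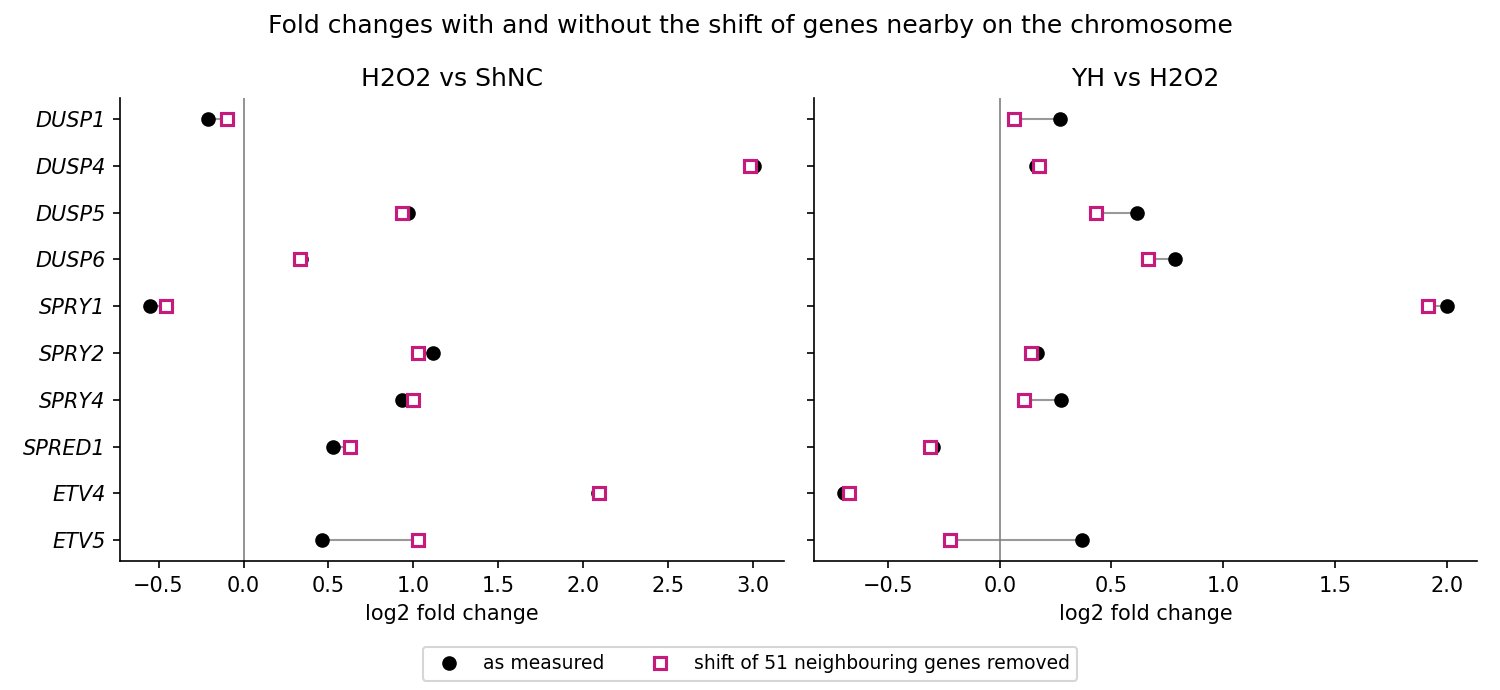
Log2 fold change of each gene (horizontal axis) as measured (black points) and with the median of the 51 tested genes around it on the chromosome subtracted (open squares), in H2O2 over ShNC and in YH over H2O2. ETV5 moves furthest, to 1.03 on the left and across 0 to -0.22 on the right, while ETV4 barely moves.

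Compared as levels per exon length (RPKM, CPM per kilobase of exon), DUSP1 and DUSP5 were the most abundant members in every group. DUSP5 averaged 182 and DUSP1 155 RPKM in YH, and DUSP1 averaged 129 and DUSP5 119 RPKM in H2O2, with overlapping libraries in both groups. In ShNC, DUSP1 averaged 149 and DUSP5 60.8 RPKM and did not overlap. Next came SPRY2 at 37.8, 33.7 and 15.6 RPKM in YH, H2O2 and ShNC, and DUSP6 at 28.7, 16.6 and 13.2 RPKM. These values overlapped in YH and in ShNC, and in H2O2 DUSP6 overlapped with ETV4 instead, which averaged 16.1 RPKM there. ETV4 and ETV5 overlapped in YH at 9.92 and 9.69 RPKM, whereas ETV5 averaged 7.50 RPKM in H2O2 and 5.45 RPKM in ShNC, against 3.79 RPKM for ETV4 in ShNC. SPRED1, at 4.57, 5.62 and 3.91 RPKM in YH, H2O2 and ShNC, overlapped with SPRY4 in YH (4.01 RPKM) and with ETV4 in ShNC, while SPRY4 averaged 3.31 RPKM in H2O2 and 1.73 RPKM in ShNC. SPRY1 and DUSP4 were last in every group, with SPRY1 at 3.09, 0.767 and 1.12 RPKM in YH, H2O2 and ShNC (overlapping SPRY4 in YH) and DUSP4 at 0.113, 0.1 and 0.0124 RPKM.

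Of the other genes known to be induced by ERK, more were called higher than lower in H2O2 against ShNC, and more were called lower than higher in YH against H2O2. This list and those that follow were also chosen with earlier results of these data known. Over all tested genes, 23.9% were called higher and 22.6% lower in H2O2 against ShNC. The shares were 22.0% higher and 21.0% lower in YH against H2O2, and 17.4% higher and 15.1% lower in YH against ShNC. Of 24 such genes tested, 16 were higher and 1 lower in H2O2 than in ShNC (median log2 fold change 0.62), 4 higher and 11 lower in YH than in H2O2 (median -0.19), and 14 higher and 1 lower in YH than in ShNC (median 0.49). Without both libraries of high mitochondrial share, 4 of them were lower in YH than in ShNC in place of 1. Genes called over all in that comparison numbered 6265 in the fit used above and 9146 without both libraries. The latter was the highest of 4950 to 9146 over 23 alternatives. EMP1, a tetraspan membrane protein, averaged 26.9 ± 2.2 CPM in YH, 91.1 ± 2.0 CPM in H2O2 and 11.7 ± 0.9 CPM in ShNC (SD, n = 4 each). CCND1, the G1 cyclin D1, averaged 29.9 ± 3.1 CPM in YH and 124 ± 4 CPM in H2O2, a log2 fold change of -2.05 ± 0.07 (edgeR adjusted p = 1.37e-11). KCNN4, a calcium-activated potassium channel, was higher in H2O2 than in ShNC by 2.78 ± 0.15. MYC, at 604 ± 124 CPM in YH and 312 ± 19 CPM in H2O2, and UPP1, uridine phosphorylase, at 255 ± 40 and 109.9 ± 7.3 CPM in YH and H2O2, were higher in YH. MCL1, an anti-apoptotic BCL2 relative on chromosome 1, was the member called lower in H2O2 than in ShNC, at -0.81, or -0.19 with the shift of its neighbours removed.

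Constitutive and other attenuators of the pathway went both ways. Of 21 tested, 7 were higher and 8 lower in H2O2 than in ShNC and 8 higher and 4 lower in YH than in H2O2, with medians of -0.08 and 0.04. Without both libraries of high mitochondrial share the 4 became 9, and 7 once the shift of neighbours was taken out. Leaving out both libraries also raised the genes called over all in YH against H2O2, from 8288 to 11194. RASA1, a GTPase-activating protein of RAS, averaged 47.3 ± 1.2 CPM in YH, 158 ± 5 CPM in H2O2 and 35.6 ± 3.6 CPM in ShNC, and was 2.15 ± 0.07 higher on the log2 scale in H2O2 than in ShNC. SPRED3, a relative of SPRED1, had the same order, at 5.14 ± 1.94, 9.48 ± 0.34 and 3.28 ± 0.60 CPM in YH, H2O2 and ShNC. LRIG1, which promotes degradation of ERBB receptors, was lowest in H2O2, at 9.52 ± 1.03 CPM in YH, 3.79 ± 0.49 CPM in H2O2 and 9.54 ± 0.85 CPM in ShNC. IL17RD, known as SEF, was higher in YH than in H2O2 by 1.36 ± 0.09, and PEA15, which holds ERK in the cytoplasm, was lower in H2O2 than in ShNC by -1.06 ± 0.12, or -0.52 with the shift of its neighbours removed. The list of p38 and JNK phosphatases held 9 genes, of which 3 were higher and 5 lower in H2O2 than in ShNC and 2 each way in YH against H2O2. With the shift of neighbouring genes removed, the 5 became 3. Among them DUSP8 averaged 12.6 ± 3.4 CPM in YH, 5.48 ± 0.40 CPM in H2O2 and 10.2 ± 0.6 CPM in ShNC, and DUSP10 was higher in H2O2 than in ShNC by 0.43 ± 0.09.

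Components of the cascade itself gave no common direction. Of 27 tested, 8 were higher and 6 lower in H2O2 than in ShNC, and 5 higher and 7 lower in YH than in H2O2. Without both libraries of high mitochondrial share, the 6 lower became 10, and the 5 higher became 10. Genes called over all rose there too, from 8971 to 11603 in H2O2 over ShNC and from 8288 to 11194 in YH over H2O2. MKNK2, a kinase activated by ERK, averaged 259 ± 5 CPM in YH, 354 ± 10 CPM in H2O2 and 167 ± 22 CPM in ShNC. RPS6KA3, the ERK-activated kinase RSK2, averaged 205 ± 9 CPM in YH and 364 ± 6 CPM in H2O2. KSR1, a scaffold of RAF and MEK, averaged 21.4 ± 0.8 CPM in YH and 10.8 ± 0.7 CPM in H2O2. MRAS, a RAS relative on chromosome 3, was -0.68 in H2O2 over ShNC and 0.77 in YH over H2O2, but 0.006 and 0.09 with the shift of its neighbours removed (adjusted p = 0.968 and 0.292).

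Among ligands and receptors, more were called lower than higher in H2O2 against ShNC. Of 28 tested from a list of 32, 5 were higher and 14 lower in H2O2 than in ShNC, and 9 were higher and 9 lower in YH than in H2O2. The 5 higher and the 9 lower include FGF18, which averaged 0.371, 0.823 and 0.101 CPM in YH, H2O2 and ShNC. Being close to the floor in ShNC, like DUSP4, its calls are given no weight. AREG, the EGF receptor ligand amphiregulin, averaged 146 ± 6 CPM in YH, 26.4 ± 0.4 CPM in H2O2 and 309.9 ± 51.2 CPM in ShNC, a log2 fold change of -3.56 ± 0.10 in H2O2 over ShNC (edgeR adjusted p = 4.83e-13). FGFR2, a fibroblast growth factor receptor, averaged 21.7 ± 2.2 CPM in YH, 5.09 ± 1.24 CPM in H2O2 and 35.0 ± 2.0 CPM in ShNC. PDGFA, a ligand of the platelet-derived growth factor receptors, ran the other way, at 12.1 ± 1.7, 29.4 ± 0.9 and 5.87 ± 0.55 CPM in YH, H2O2 and ShNC. HBEGF, another EGF receptor ligand, was higher in H2O2 than in ShNC by 0.42 ± 0.07.

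Other ETS factors, SRF partners and CIC, of which 16 of 17 were tested, were higher in 8 and lower in 4 cases in H2O2 than in ShNC, and higher in 6 and lower in 5 in YH than in H2O2. With the shift of neighbouring genes removed, the counts were 7 and 2 in H2O2 against ShNC and 3 and 3 in YH against H2O2. ETS2 had the order seen for ETV4, at 31.5 ± 3.7 CPM in YH, 69.4 ± 4.9 CPM in H2O2 and 17.2 ± 1.6 CPM in ShNC, and its values of 2.01 in H2O2 over ShNC and -1.14 in YH over H2O2 became 1.35 and -0.46 with the shift of its neighbours removed. ELK3 was 0.55 ± 0.07 in H2O2 over ShNC and -0.89 ± 0.07 in YH over H2O2. ELF3, an epithelial ETS factor, was -1.34 ± 0.11 and 0.99 ± 0.11 in these comparisons. ELK4, a partner of SRF, was 0.50 ± 0.07 in YH over H2O2, or 0.01 with the shift of its neighbours removed.

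**Figure D4:**
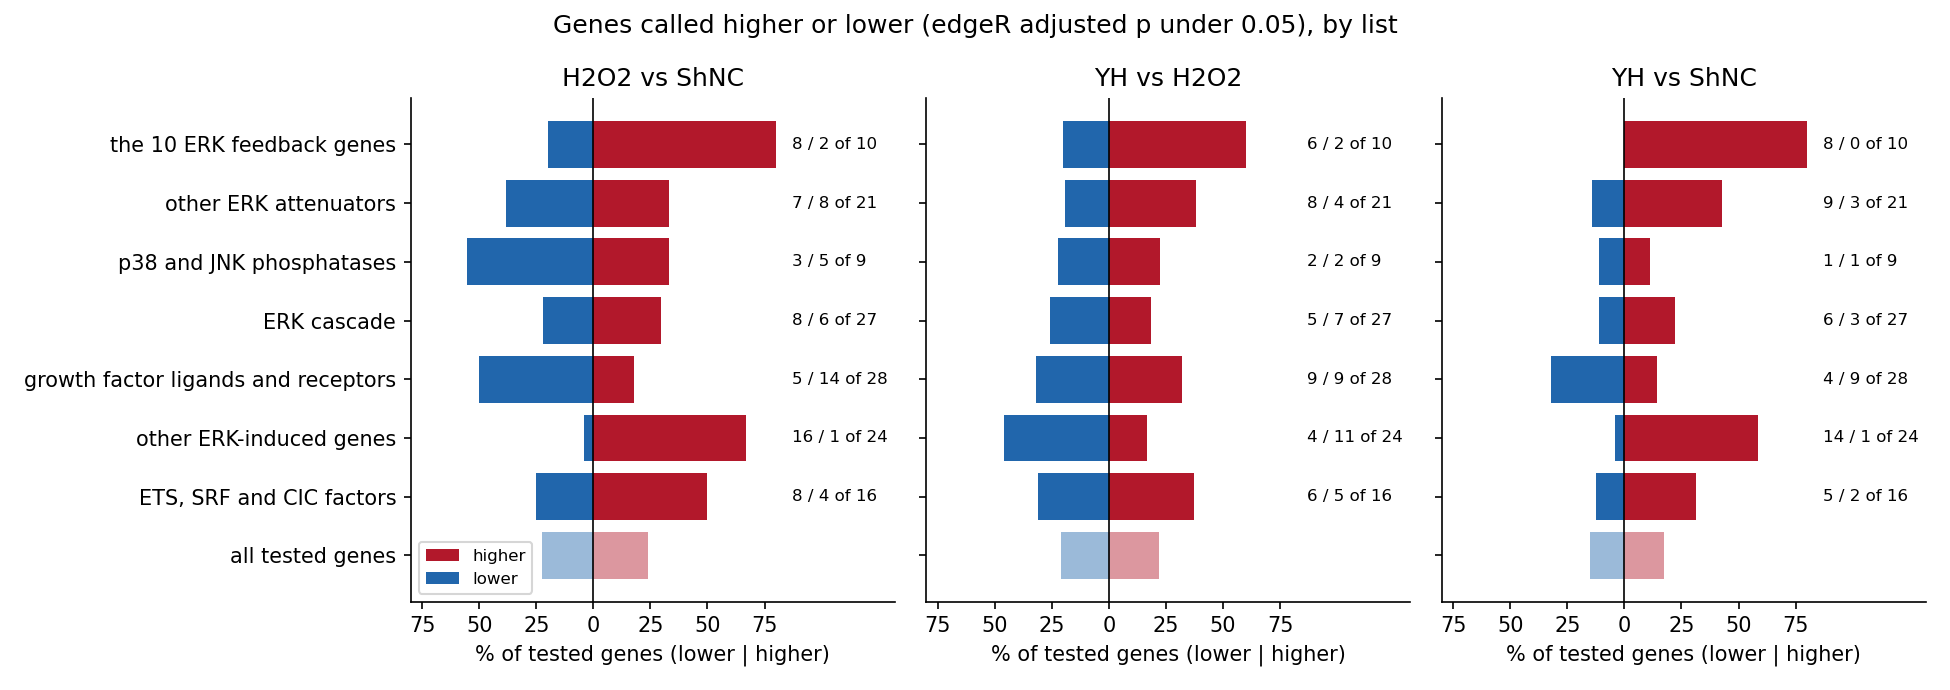
Share of the tested genes of each list called lower (blue, left) and higher (red, right) by edgeR in H2O2 over ShNC, YH over H2O2 and YH over ShNC, with the counts beside the bars and all tested genes at the bottom. The 10 feedback genes have 8 higher and 2 lower in the first panel, 6 and 2 in the second and 8 and 0 in the third, and the 24 other ERK-induced genes have 11 lower in the second.

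Genes with the pattern most like DUSP6, SPRY4 or ETV4 were ranked over the 12 libraries by the root mean square difference of log2 CPM, each centred on its mean, among 10821 genes. The nearest to SPRY4 was SH2B3, the adaptor LNK, at 0.0716, where the spread of SPRY4 itself about its mean was 0.528, followed by TNFRSF21 at 0.11 and ROR1 at 0.122. Nearest to DUSP6, with a spread of 0.493, were ASAH1 (acid ceramidase) at 0.0896, MERTK at 0.145 and PPARD at 0.148. Nearest to ETV4, with a spread of 0.87, were PODXL (podocalyxin) at 0.109, PAPPA at 0.135 and TMEM158 at 0.156. In PAPPA, 21.2% of exon bases also belong to other genes, so its level is uncertain. PODXL averaged 14.5 CPM in YH, 24.6 CPM in H2O2 and 5.81 CPM in ShNC. The likeness is over libraries of 3 groups and is given as a description.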

How the data were processed

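Per the labels, libraries were made from oligo(dT)-selected RNA with a paired-end kit. The authors deposited 1 table of raw counts per library, whole numbers per gene, neither scaled nor pooled. The submitters' processing notes name GRCh38 (hg38) and the tools HISAT2, Subread, featureCounts and DESeq2. Their versions, the annotation, the strand setting and the treatment of multi-mapping reads were not given in the sources used here, so reads of overlapping genes could not be told apart. Each table held 40649 genes, 2049 with no count in any library and 0 rows naming no gene. Symbols were found for 40640 and GENCODE v29 positions for 39306. In the tables of the third group the column names read HY and the titles YH, and the sample titles were followed.

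Counts were tested by the quasi-likelihood test of edgeR 4.0.16 (R 4.3.3), with robust fitting, TMM factors and a group mean as the only term. All 12 libraries and the 19268 genes kept by filterByExpr entered (common dispersion 0.0163, 9 residual degrees of freedom). P-values were adjusted by Benjamini-Hochberg over all tested genes, SE comes from the F statistic, and 95% intervals from the t distribution of the model. Values after ± are SD for CPM and SE for log2 fold changes. RPKM was computed from the merged exon length of GENCODE v29. The model was tested on simulated data. Alternatives were DESeq2 1.42.0, limma 3.58.1 with voom, other scalings and filters, 1 library left out, both libraries of high mitochondrial share left out, the replicate number as a block, and the median of the 51 tested genes around a gene subtracted before the fit. The counts of replicates differed by 2.85 or more chi-square units per degree of freedom, so each library counted as 1 replicate.

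The members and lists were chosen with earlier results of these data known. The genes named in other lists were drawn from those called, with a mean of at least 5 CPM over all libraries. Up to 2 with the largest rise and 2 with the largest fall per list were taken for the first 2 comparisons. The groups of the genes so taken did not overlap, and not all of these genes are named. FGF18 is named outside this rule, for its low level. The likeness ranking was run for DUSP6, SPRY4 and ETV4, with 3 genes each. Promoter sequences are from RefSeq, GRCh38.p14. A listed marker is not reported here and is left out of the marker sums.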

Additional observations from a re-analysis of the deposited data

Results flagged for a closer look

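SPRED1 in YH replicate 3, at 29.42 CPM against 39.8, 41.9 and 39.9 CPM in the other YH libraries, lay further from its neighbour than Dixon's 95% limit for 4 samples allows. It was 1 of 33 groups of values examined in this way, and chance marks about 1 in 20. The library had 11.3% of its counts on mitochondrial genes, and the part of this share in the SPRED1 value was not tested.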

How the results depend on the processing

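The counts of genes and of members called stayed within 1.5 times of the values above under every alternative run, with 8 to 10, 6 to 9 and 7 to 9 members called in H2O2 over ShNC, YH over H2O2 and YH over ShNC. With 1 library left out, 451 of 468 values of single genes and ratios kept their direction and side of the threshold, 15 lost their call and 2 gained one. Under the other alternatives, 364 of 378 such values stayed the same, 6 lost their call and 3 gained one. Another 4, all of them ratios, moved by at least their spread within groups. ETV5 in YH over H2O2 was the 1 reversal, at -0.22 with the shift of neighbouring genes removed. Libraries of the same replicate number did not deviate together (correlations of -0.222 to 0.103), so the numbers do not pair them. With the replicate block, 10, 7 and 8 members were called, and SPRY4 in YH over H2O2 stood at 0.27 with an edgeR adjusted p of 0.0518. DUSP4 had 2 to 4 counts per ShNC library, so depth limits its fold change.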

Other observations

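Ratios of counts within a library, for pairs chosen after their values were seen, need no scaling between libraries. The count of DUSP5 over that of DUSP1, of the nuclear phosphatases specific for ERK and of broader range, was 1.52 ± 0.05 in YH, 1.20 ± 0.09 in H2O2 and 0.528 ± 0.052 in ShNC (SD, n = 4 each), with no overlap between groups. The count of SPRY1 over that of SPRY2 was 0.109 ± 0.032 in YH, 0.0301 ± 0.0067 in H2O2 and 0.0953 ± 0.0252 in ShNC. In H2O2 it lay at 0.0217 to 0.0362, below every library of the other groups, whose ranges of 0.0767 to 0.152 in YH and 0.0757 to 0.132 in ShNC overlapped. A ratio shows unequal change and not which of the pair moved.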
